A study of Homo sapiens with 4 samples.

Results

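SREBF1 and 6 enzymes of cytosolic fatty acid synthesis (ACLY, ACACA, ACACB, FASN, ACSS2 and ME1) were followed in J.gamma1 cells after knockdown of the fatty acid elongase gene ELOVL5. The 7 genes were chosen by name for their place in the pathway, with earlier results of these data known. They came out of 64252 gene identifiers in the deposited table, and each symbol matched 1 identifier. The surrounding lists were chosen in the same way, so shares set beside those of all tested genes are descriptions. J.gamma1 is a derivative of Jurkat, a human leukemia line of T-lineage origin (T-ALL in the labels), and lacks phospholipase C gamma 1, so both groups share that defect. The control group carried a non-targeting hairpin (shNC, 2 libraries) and the knockdown group a hairpin against ELOVL5 (shELOVL5, 2 libraries). All results therefore concern 1 cell line, and the sample labels give neither the hairpin sequence nor the time of harvest. The column names of the table carry the tag D4, whose meaning no source used here explains. Separate cultures are not stated for the replicates, so the p-values rest on a spread between libraries that may be purely technical.

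De novo lipogenesis turns citrate or acetate into palmitate in the cytosol. ATP citrate lyase (ACLY) splits citrate to acetyl-CoA, acetyl-CoA synthetase (ACSS2) makes it from acetate, the acetyl-CoA carboxylases (ACACA and ACACB) turn it into malonyl-CoA, and fatty acid synthase (FASN) builds the chain. Cytosolic malic enzyme (ME1) supplies part of the NADPH. SREBF1 encodes SREBP-1, a membrane-bound transcription factor that is escorted by SCAP, cleaved by the site-1 and site-2 proteases and then activates these genes, which proliferating lymphoid cells use to make membranes.

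Library totals lay between 16254002 and 17338719 counts. ELOVL5 itself had 5816 and 5664 counts in shNC and 1255 and 1157 in shELOVL5 (log2 fold change -2.29, SE 0.0486, edgeR adjusted p = 1.79e-09). All 19 T-lineage markers were detected, with summed levels of 2599 and 2634 CPM (counts scaled to library size) in shNC and 2446 and 2484 in shELOVL5. Behind these close sums, 12 of the 19 passed at an edgeR adjusted p below 0.05 (63.2%, against 20.4% of all tested genes). Of these 9 were lower and 3 higher, and the median log2 fold change of the 19 was -0.26. Fewer markers passed with 1 library left out, as did fewer of all tested genes. The part of this shift in the results below was not tested. Of 10 markers of liver and fat, the tissues best known for lipogenesis, 6 were at 0 in every library (ALB, APOB, TTR, LEP, FABP4 and CIDEC). Their sum was 8.60 to 9.24 CPM in shNC and 11.6 to 12.3 in shELOVL5, and CPS1 was the only one of the 10 tested. Of 10 markers of other blood cells, 4 were at 0 in every library, among them LYZ, CSF1R and HBB, and the sum of 39.8 to 45.1 CPM in shNC and 25.9 to 27.9 in shELOVL5 came mostly from CD79A.

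SREBF1 (ENSG00000072310) lies on the minus strand of GRCh38 chromosome 17, 17810399 to 17837002, and ACLY (ENSG00000131473, 41866908 to 41930542), ACACA (ENSG00000278540, 37084988 to 37406818) and FASN (ENSG00000169710, 82078333 to 82098332) lie on the same chromosome and strand. ACACB (ENSG00000076555) is on chromosome 12, 109116595 to 109268226, ACSS2 (ENSG00000131069) on chromosome 20, 34872146 to 34927962, and ME1 (ENSG00000065833) on chromosome 6, 83210389 to 83431071. The windows from 250 bases before to 50 after the RefSeq start site were in the promoter table for 6 of the 7 genes (GRCh38.p14). They are shown for the 3 genes that fell after knockdown, SREBF1 (chr17:17836937-17837236, minus strand), ACLY (the upstream of its 2 windows, chr17:41918973-41919272, minus strand) and ACACB (the downstream of its 2 windows, chr12:109154429-109154728, plus strand). Capitals mark the GC box GGGCGG, a motif of Sp1, and the NF-Y box CCAAT, on either strand, the factors known to act beside SREBPs.

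SREBF1: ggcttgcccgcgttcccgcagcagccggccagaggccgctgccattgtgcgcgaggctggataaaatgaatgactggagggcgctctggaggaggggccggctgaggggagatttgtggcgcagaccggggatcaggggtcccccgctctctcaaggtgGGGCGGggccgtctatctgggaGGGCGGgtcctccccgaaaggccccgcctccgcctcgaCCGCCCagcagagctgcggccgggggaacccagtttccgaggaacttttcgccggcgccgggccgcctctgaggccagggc

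ACLY: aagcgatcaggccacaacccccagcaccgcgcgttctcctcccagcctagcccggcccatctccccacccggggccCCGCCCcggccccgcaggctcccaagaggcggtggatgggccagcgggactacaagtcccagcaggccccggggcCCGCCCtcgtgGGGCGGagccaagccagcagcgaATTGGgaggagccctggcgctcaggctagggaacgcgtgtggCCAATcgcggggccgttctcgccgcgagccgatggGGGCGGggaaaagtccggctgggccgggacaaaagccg

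ACACB: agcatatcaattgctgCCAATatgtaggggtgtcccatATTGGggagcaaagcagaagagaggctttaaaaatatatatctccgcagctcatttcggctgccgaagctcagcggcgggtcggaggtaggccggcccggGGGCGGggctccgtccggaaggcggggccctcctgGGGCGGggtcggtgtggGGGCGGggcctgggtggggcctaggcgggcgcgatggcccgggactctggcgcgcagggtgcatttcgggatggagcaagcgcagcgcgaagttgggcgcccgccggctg

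The SREBF1 window held 3 GC boxes and no NF-Y box, the ACLY window 4 GC boxes and 2 NF-Y boxes, and the ACACB window 3 and 2, with no 2 matches overlapping. The other ACACB window (chr12:109116337-109116636), upstream and not printed because it held no match, had 0 of either motif. Genes that did not pass or were not tested also held these boxes. The ACACA windows held 6, 7 and 0 GC boxes and 0, 1 and 2 NF-Y boxes. The ACSS2 windows held 1 and 3 GC boxes and 1 and 0 NF-Y boxes. The ME1 window held 1 GC box and no NF-Y box. The boxes thus do not set apart the genes that fell. Of 35116 RefSeq windows of the same length, 45.0% held a GC box and 34.6% an NF-Y box on either strand. A sterol response element written as TCACNCCAC, present in 1.13% of all windows, and the E-box CACGTG, present in 7.26%, were searched on both strands and were in none of the 11 windows of the 6 genes. That says only that these letters were not in these stretches. An intron of SREBF1 also holds the miRNA gene MIR33B, whose 5p product is shown because it shares the SREBF1 transcript, with its seed (bases 2 to 8) in capitals.

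hsa-miR-33b-5p: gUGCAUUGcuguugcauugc

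MIR33B itself received 2 and 1 counts in shNC and 3 and 0 in shELOVL5, and mature miRNAs were not measured by these libraries.

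SREBF1 fell after ELOVL5 knockdown. Its 3654 and 3827 counts in shNC stood against 2812 and 2508 in shELOVL5, or 215 and 239 against 161 and 152 TMM-scaled CPM. Both knockdown libraries were below both controls, and the difference between groups exceeded the spread within them. The level went from 227 ± 16.5 to 156 ± 6.45 CPM (SD, n = 2), 1.45-fold lower, with a log2 fold change of -0.54 (SE 0.0588, 95% interval -0.67 to -0.41, edgeR adjusted p = 0.000136). Gene counts do not separate the SREBP-1a and SREBP-1c transcripts. Exons at the 3′ end of SREBF1 share 556 bases with RAI1 on the opposite strand, and no source used here says whether the counting used strand. RAI1 had 1294 and 1103 counts in shNC and 1272 and 1051 in shELOVL5, and did not pass (log2 fold change -0.09, adjusted p = 0.552).

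**Figure D1:**
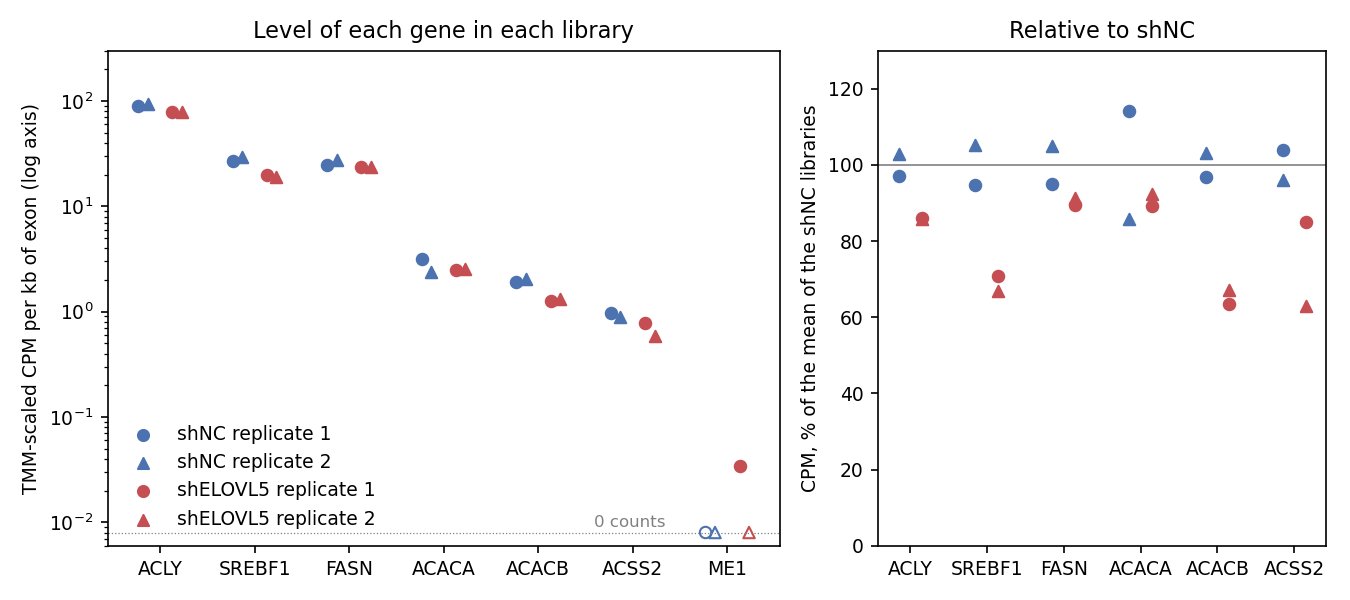
Left, TMM-scaled CPM per kilobase of exon (log axis) of the 7 genes in each of the 4 libraries, with open symbols for 0 counts; right, CPM as a percent of the mean of the shNC libraries for the 6 tested genes. ACLY was the most abundant at 92.0 CPM per kilobase in shNC, and ME1 had at most 2 counts in a library. Of the 6 tested genes all but ACACA have both shELOVL5 libraries below both shNC libraries.

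Of the 7 genes, 6 passed the filter on low counts and were tested, and 3 of these (SREBF1, ACLY and ACACB) fell while none rose. Among all 17461 tested genes 20.4% passed, 11.2% as lower and 9.22% as higher. For 5 of the 6 genes no shELOVL5 library overlapped a shNC library, against 60.1% of all tested genes. Their median log2 fold change was -0.33, against 0.006 for all tested genes. On chromosome 17, which carries 4 of the 7 genes, 21.1% of 1088 tested genes passed and the median was -0.02.

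ACLY, which makes cytosolic acetyl-CoA from citrate, was the second gene that fell. Its counts were 7919 and 7926 in shNC and 7216 and 6813 in shELOVL5. On the CPM scale these were 466 and 494 against 413 and 412, so both knockdown libraries were below both controls. The change was small, from 480 ± 19.6 to 413 ± 0.419 CPM (SD, n = 2), or 1.16-fold, at edgeR adjusted p = 0.00397 (log2 fold change -0.22, SE 0.0411). ACSS2, the acetate-using route to the same product, had the lowest counts among the tested genes of the set. They were 88 and 77 in shNC and 74 and 52 in shELOVL5. Its level was 4.99 ± 0.270 CPM in shNC and 3.69 ± 0.769 in shELOVL5, and with a log2 fold change of -0.43 it missed the threshold (adjusted p = 0.335). The 95% interval of its ratio, 0.478 to 1.15, includes both the fall seen for SREBF1 and no difference.

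The carboxylase genes differed in how well they were measured. ACACB, whose product sits at the mitochondrial surface and restrains fatty acid import, had 472 and 476 counts in shNC and 318 and 319 in shELOVL5. These were 27.8 and 29.7 CPM against 18.2 and 19.3, with no overlap. It fell 1.53-fold, from 28.7 ± 1.33 to 18.8 ± 0.784 CPM (SD, n = 2; log2 fold change -0.62, SE 0.121, edgeR adjusted p = 0.00518). Leaving out shELOVL5 replicate 1 gave -0.58 and just missed the threshold (adjusted p = 0.0514, range over all 11 alternatives 0.00492 to 0.0514).

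ACACA, the cytosolic form that feeds fatty acid synthase, had 699 and 496 counts in shNC, the widest spread between controls among the tested genes of the set on the log scale, and 562 and 550 in shELOVL5. The knockdown libraries, at 32.2 and 33.3 CPM, lay between the controls, at 41.2 and 30.9. Its log2 fold change was -0.14 (95% interval -0.44 to 0.16, adjusted p = 0.53), and it was 0.08 without shNC replicate 1. The value is uncertain for another reason too, since 23 of the 46 transcripts that carry the symbol ACACA in GENCODE 29 lie outside the primary assembly. Reads may thus have been split between identifiers, and only the one on the primary assembly was named by the table used here. None of the other 6 genes had such transcripts.

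FASN, the last enzyme of the chain, had 3952 and 4121 counts in shNC and 3828 and 3690 in shELOVL5. Its CPM of 233 and 257 in shNC and 219 and 223 in shELOVL5 did not overlap, but the distance was about that between the controls. Its log2 fold change was -0.15 (95% interval -0.26 to -0.03), which missed the threshold after adjustment (edgeR adjusted p = 0.0817). It passed without shNC replicate 1 (log2 fold change -0.22, adjusted p = 0.0106) and was -0.08 without shNC replicate 2, with adjusted p between 0.0106 and 0.363 over the alternatives. ME1 was not detectable at this depth, with 0 counts in each shNC library, 2 in shELOVL5 replicate 1 and 0 in replicate 2. A count of 0 allows up to 3 counts, or 0.173 to 0.185 CPM, by counting error alone.

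**Figure D2:**
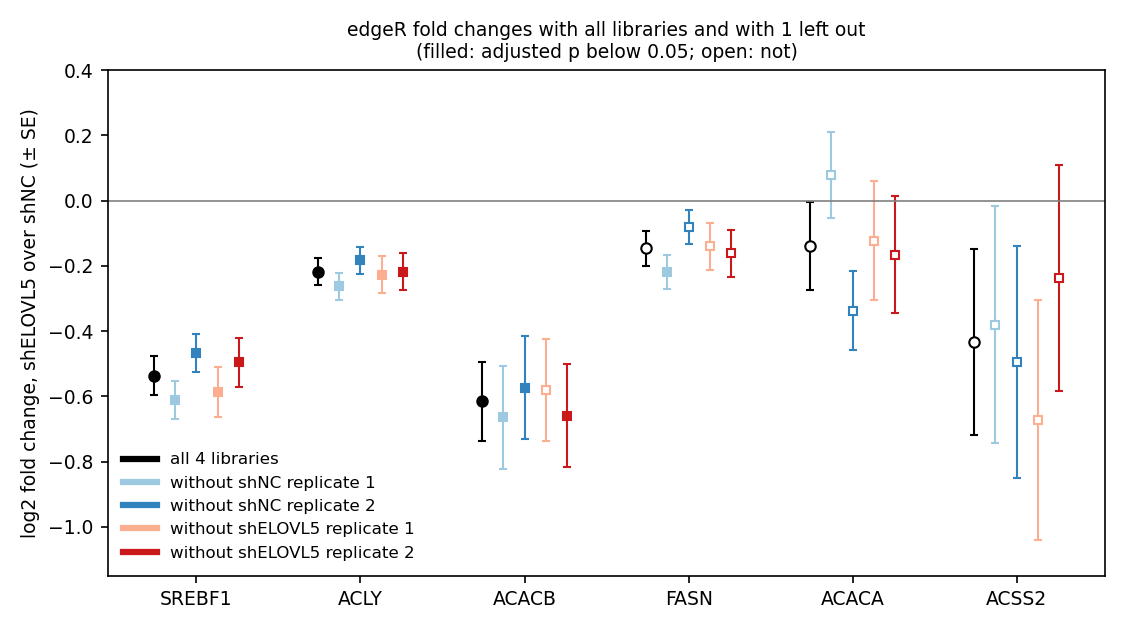
log2 fold change of shELOVL5 over shNC (± SE) for the 6 tested genes, from edgeR with all 4 libraries (circles) and with 1 library left out (squares), filled where the adjusted p was below 0.05. SREBF1 and ACLY stayed filled throughout, ACACB was open without shELOVL5 replicate 1 and FASN filled only without shNC replicate 1; ACACA crossed 0 without shNC replicate 1.

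Per kilobase of exon, the shNC levels were ordered ACLY (92.0 ± 3.76), SREBF1 (28.2 ± 2.06), FASN (26.1 ± 1.82), ACACA (2.77 ± 0.557), ACACB (1.98 ± 0.0914), ACSS2 (0.927 ± 0.0502) and ME1 (0), all as CPM per kilobase (SD, n = 2). Exon length here merges the exons of all annotated transcripts of a gene, 8030 bases for SREBF1 and 9364 for FASN. The order of genes depends on that length, whereas the change of a gene between groups does not. The ranges of SREBF1 and FASN over the shNC libraries overlapped, though within each library SREBF1 was the higher. The place of ACACA rests on the uncertain count above. In shELOVL5 the SREBF1 level of 19.5 ± 0.804 was below that of FASN, 23.6 ± 0.323. The ratio of SREBF1 to FASN on this scale was 1.08 in each shNC library, against 0.857 and 0.792 in the shELOVL5 libraries. The ratio of ACLY to FASN was 3.60 and 3.45 in shNC and 3.38 and 3.31 in shELOVL5, so the groups lay closer than for SREBF1. With 2 libraries against 2, an exact two-sided permutation test of a ratio cannot give less than 0.333, so these ratios are descriptions.

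The genes with the pattern most like that of SREBF1 over the 4 libraries were TUBA1A, ALDH6A1 and RAB8A. The measure was the Euclidean distance between centred log2 CPM profiles, and it was 0.0134, 0.0151 and 0.0172 among 8507 genes that averaged 20 CPM or more. The log2 fold changes of these 3 genes were -0.54, -0.54 and -0.55. With 4 points in 2 groups, such a match says little beyond the size of the difference.

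SREBF2, the paralog that encodes SREBP-2 and mainly drives cholesterol genes, did not pass. It had 3372 and 3325 counts in shNC and 3430 and 3348 in shELOVL5 (log2 fold change -0.02, 95% interval -0.13 to 0.08, adjusted p = 0.78), and with scaling by total counts alone the value was 0.01. Per kilobase, SREBF1 stood at 1.02 and 1.08 times SREBF2 in the shNC libraries and at 0.772 and 0.705 times in shELOVL5. On this scale SREBF1 was near the level of its paralog in control cells and below it in both knockdown libraries. Both statements depend on the merged exon lengths, 8030 bases for SREBF1 and 7557 for SREBF2. The fall of the ratio between groups does not depend on them.

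Among 22 genes of SREBP control, 21 were tested, 4 fell and 1 rose, with a median log2 fold change of -0.02. That share, 23.8%, was near the 20.4% of all tested genes, so the count says nothing particular of the list. MBTPS1, which encodes the site-1 protease that makes the first cut in SREBPs, had 2578 and 2339 counts in shNC and 1608 and 1649 in shELOVL5. It fell by 0.63 on the log2 scale (SE 0.0609, edgeR adjusted p = 5.54e-05). NR1H2, the gene of liver X receptor beta, a nuclear receptor that activates SREBF1 transcription, rose from 984 and 1024 to 1601 and 1644 counts (log2 fold change 0.65, SE 0.0776, edgeR adjusted p = 0.000238). FBXW7, whose product marks nuclear SREBPs for degradation, fell by 0.46 on the log2 scale. NFYA, a subunit of the SREBP partner NF-Y, fell by 0.37 and USF1, an E-box factor of the FASN promoter, fell by 0.42, the latter not without shELOVL5 replicate 2 (adjusted p = 0.0767, range over the alternatives 0.000935 to 0.0767). The escort and retention genes, chosen here after their values were seen, did not pass. SCAP had a log2 fold change of 0.11, INSIG1 of 0.06 and INSIG2 of -0.08. MLXIPL, which encodes the glucose-sensing lipogenic factor ChREBP, was not tested, with at most 2 counts in a library.

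Other known targets of SREBP-1 mostly fell where they passed. Of 13 genes 12 were tested, 6 fell and 1 rose, 58.3% against 20.4% of all tested genes, with a median log2 fold change of -0.24. That share is at the upper end. Over the alternatives that kept every library, 5 to 7 genes of the list passed, with 5 under DESeq2 and 5 under limma-voom. SCD, the stearoyl-CoA desaturase gene, had 9453 and 9143 counts in shNC and 7914 and 7633 in shELOVL5 (log2 fold change -0.30, SE 0.0371, edgeR adjusted p = 0.000305). The desaturase gene FADS1 fell from 199 ± 1.77 to 156 ± 3.93 CPM (SD, n = 2) and FADS2 by 0.20 on the log2 scale. MID1IP1, whose product promotes polymerisation of acetyl-CoA carboxylase, fell from 98.8 ± 2.15 to 72.6 ± 0.173 CPM, with a log2 fold change of -0.44. THRSP, a lipogenic regulator of liver and fat, was at 0 in all 4 libraries.

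GPAM, which encodes the first acyltransferase of glycerolipid synthesis (log2 fold change -0.29), and AACS, the acetoacetyl-CoA synthetase gene (-0.33), were the remaining 2 that fell and are named after their values were seen. Neither was firm, with adjusted p of 0.0403 and 0.0418, and ranges over the alternatives of 0.0234 to 0.214 and 0.0409 to 0.225. GPAM did not pass without shNC replicate 1 or either shELOVL5 library, and AACS did not pass without any 1 of the 4. Among the alternatives that kept all libraries, GPAM passed only with RLE scaling and the replicate block, and AACS only with RLE scaling. FADS2 did not pass without shELOVL5 replicate 1 (log2 fold change -0.19), where fewer of all tested genes passed too. ELOVL6, the elongase that extends palmitate, did not pass (log2 fold change -0.28, adjusted p = 0.355) and is named after its value was seen. Of the other targets that did not pass, PNPLA3 (0.53, at most 41 counts in a library), ACSL3 (0.11) and LPIN1 (0.07) lay above 0. TMEM97 (-0.09) lay below. These too are named after their values were seen.

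**Figure D3:**
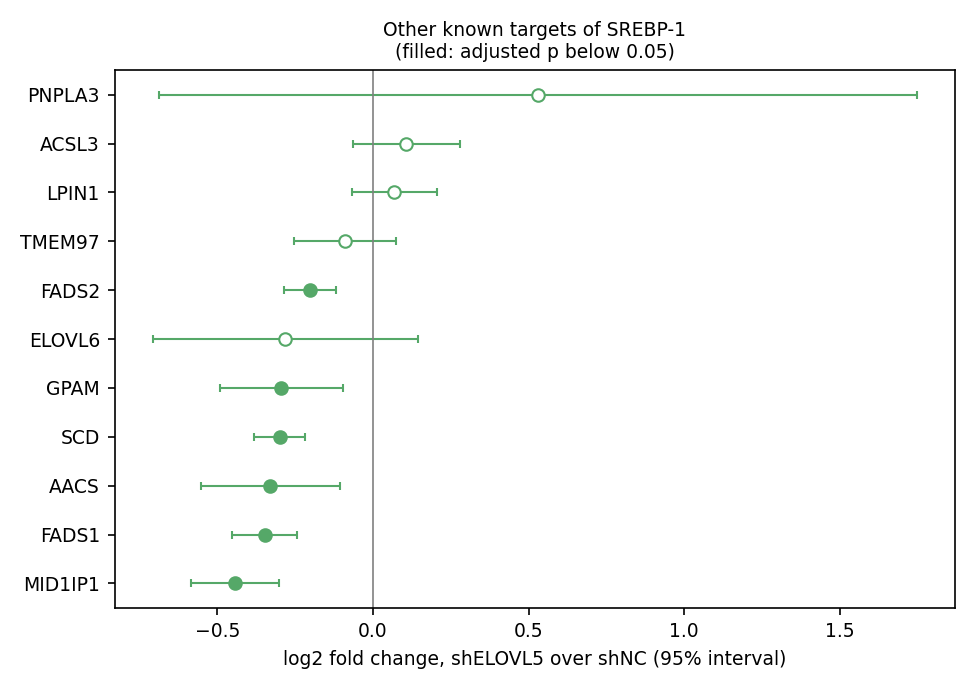
log2 fold change of shELOVL5 over shNC with its 95% interval for 11 of the 12 tested genes among other known SREBP-1 targets, filled where the edgeR adjusted p was below 0.05. The 6 that fell lie between -0.44 and -0.20, and the 1 that rose is not drawn.

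Of 19 genes that supply acetyl-CoA and NADPH, 18 were tested, 5 fell and none rose, 27.8% against 20.4% of all tested genes (median log2 fold change -0.06). PDHB, a subunit of the pyruvate dehydrogenase that feeds mitochondrial citrate, fell most, from 1821 and 1603 to 975 and 968 counts (log2 fold change -0.86, SE 0.0712, edgeR adjusted p = 2.05e-05). SLC16A1, which encodes a monocarboxylate transporter, fell by 0.39 on the log2 scale. PGD, the gene of an NADPH-producing pentose phosphate enzyme, fell by 0.22, TKT, the transketolase gene, by 0.14 and MTHFD1, a folate enzyme gene linked to NADPH, by 0.19. With all libraries kept, TKT did not pass in edgeR by total counts only (adjusted p = 0.0906) or with no low-count filter (0.0784). MTHFD1 did not pass with no low-count filter (edgeR adjusted p = 0.0557). All 3 were also sensitive to single libraries. PGD did not pass without shELOVL5 replicate 1 (adjusted p = 0.0542, range over the alternatives 0.00319 to 0.0542). TKT did not pass without either shELOVL5 library (0.0287 to 0.208), nor MTHFD1 (0.00697 to 0.111) when shNC replicate 1 or either shELOVL5 library was omitted. Over all tested genes, too, fewer passed without either shELOVL5 library, so such losses are not particular to this list. IDH1 and the citrate carrier gene SLC25A1, named after their values were seen, did not pass, with log2 fold changes of 0.26 and 0.07.

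Among 20 genes whose products modify the carboxylases and fatty acid synthase or use malonyl-CoA, 17 were tested, 4 fell and 2 rose, 35.3% against 20.4% of all tested genes (median log2 fold change -0.05). TRIB3, whose product links acetyl-CoA carboxylase to the ubiquitin ligase COP1 and which is also a stress gene, fell from 2067 and 2074 to 654 and 553 counts (log2 fold change -1.82, SE 0.0787, edgeR adjusted p = 2.34e-07). CAMKK2, an upstream kinase of AMPK, the kinase that inhibits the carboxylases, fell from 82.1 ± 0.082 to 51.6 ± 0.869 CPM. The AMPK subunit genes moved in both directions. PRKAA1 rose by 0.32 and PRKAB2 by 0.41 on the log2 scale, and PRKAB1, named after its value was seen, fell by 0.23. AASDHPPT, whose product attaches the phosphopantetheine arm to fatty acid synthase, fell by 0.24.

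Leaving out 1 library ended several of these calls. PRKAA1 did not pass without shELOVL5 replicate 1 (adjusted p = 0.0923, range over the alternatives 0.00482 to 0.0923). PRKAB2 (0.00768 to 0.0843) was lost when shNC replicate 2 or either shELOVL5 library was omitted. For PRKAB1 shNC replicate 1 and shELOVL5 replicate 1 mattered, and for AASDHPPT shNC replicate 2 and shELOVL5 replicate 2. With all libraries kept, PRKAB1 did not pass in edgeR by total counts only (adjusted p = 0.061) or with no low-count filter (0.109). It also did not pass in edgeR with robust=FALSE (adjusted p = 0.0589) or by limma-voom (0.0571). AASDHPPT did not pass in edgeR with no low-count filter (adjusted p = 0.0541). Fewer of all tested genes passed too when 1 library was left out, so such losses are not particular to this list.

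Of 16 mitochondrial counterparts of the pathway 14 were tested, 3 fell and 3 rose, 42.9% against 20.4% of all tested genes (median log2 fold change -0.04). ACSF3, the mitochondrial malonyl-CoA synthetase gene, fell from 123 ± 2.79 to 97.2 ± 1.93 CPM (log2 fold change -0.34, edgeR adjusted p = 0.00224). NDUFAB1, the mitochondrial acyl carrier protein gene (0.40), CBR4, a mitochondrial ketoacyl reductase subunit gene (0.38), and PC, the pyruvate carboxylase gene (-0.31), also passed. ME2, the mitochondrial paralog of ME1, rose from 2179 and 2073 to 2808 and 2409 counts (log2 fold change 0.25, edgeR adjusted p = 0.0132), while ME3 had at most 4 counts in a library. ME2 was thus the only malic enzyme gene of the 3 with counts that allowed a test, and it did not pass with no low-count filter. ACSS1, the mitochondrial paralog of ACSS2, was far more abundant than ACSS2, at 11.6 ± 0.017 against 0.927 ± 0.0502 CPM per kilobase in shNC. It fell by 0.19 at the edge of the threshold (adjusted p = 0.0498, range over the alternatives 0.0492 to 0.228), and ACSS3 had at most 1 count.

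ACSF3 was the only gene of the mitochondrial list that passed whichever library was left out. ACSS1 did not pass without any 1 of the 4 libraries, and CBR4 and PC not without shNC replicate 2 or either shELOVL5 library. ME2 and NDUFAB1 did not pass without shELOVL5 replicate 1. With all libraries kept, CBR4 did not pass in edgeR with no low-count filter (adjusted p = 0.0916) or with robust=FALSE (0.0533). It also did not pass by DESeq2 (0.0705) or limma-voom (0.0536). PC did not pass in edgeR by total counts only (0.0543) or with no low-count filter (0.0671), nor by DESeq2 (0.0699). Of these alternatives, ACSS1 passed only with RLE scaling. The adjusted p over the alternatives ranged from 0.0232 to 0.225 for CBR4, 0.0319 to 0.174 for PC, 0.00656 to 0.161 for ME2 and 0.00379 to 0.069 for NDUFAB1. Since fewer of all tested genes passed with 1 library left out, losses of that kind are not particular to these genes.

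**Figure D4:**
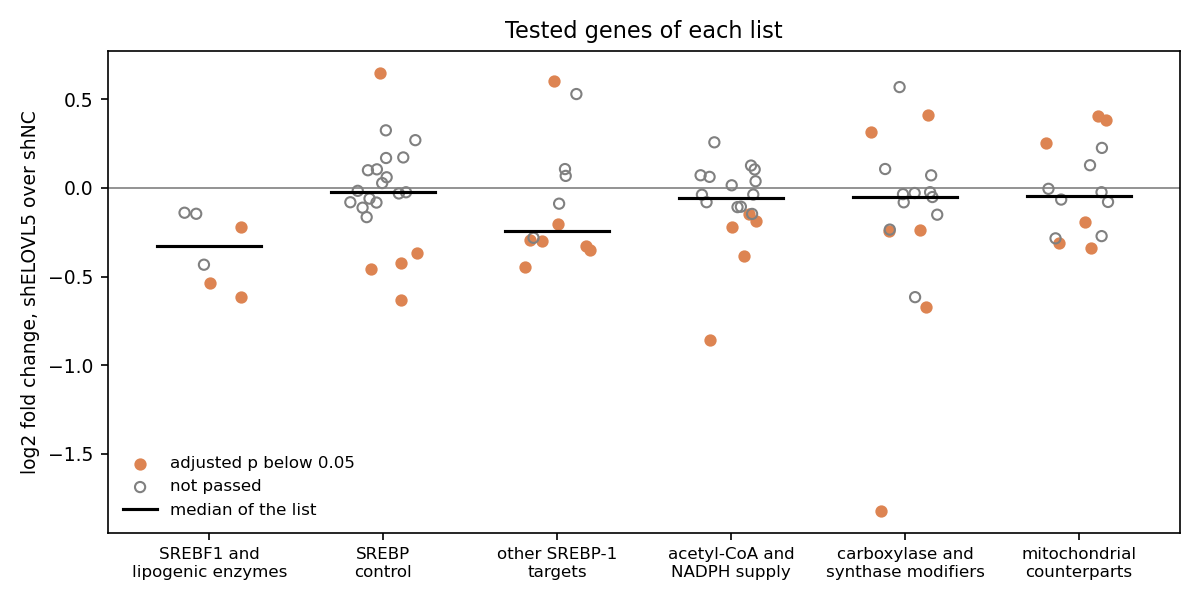
log2 fold change of shELOVL5 over shNC for the tested genes of 6 lists, each point a gene (filled where the edgeR adjusted p was below 0.05) and each bar the median of the list. SREBF1 with its lipogenic enzymes and the other SREBP-1 targets have medians of -0.33 and -0.24, and the other 4 lists lie between -0.06 and -0.02, beside 0.006 for all tested genes. The 19 T-lineage markers, not drawn, have a median of -0.26, so low medians were not limited to lipogenic genes.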

How the data were processed

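RNA sequencing covered 4 libraries of J.gamma1 cells, assigned to groups and replicate numbers by their titles. The deposited table holds whole-number counts per Ensembl gene, not normalized. Per the submitters' processing notes, HISAT2 2.2.0, StringTie and build hg38 were used; for the annotation, counting step and strand setting no source used here gives details. Of 64252 identifiers, 56105 were found in the list of gene names used, and 40995 carried a symbol. Positions and exon lengths (exons merged over all transcripts of a gene) came from GENCODE 29 (GRCh38), and promoter and miRNA sequences from RefSeq (GRCh38.p14).

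The groups were compared with edgeR 4.0.16 in R 4.3.3 (filterByExpr with minimum count 10, TMM, glmQLFit with robust=TRUE, glmQLFTest, two-sided, group as the only term). P-values were adjusted by Benjamini-Hochberg over all 17461 tested genes, with a threshold of 0.05. SE is the log2 fold change divided by the square root of F. The code was also run on simulated counts with the same spread for every gene, and no result here rests on that run. The 11 alternatives were RLE scaling, total counts only, no low-count filter, DESeq2 1.42.0, limma-voom 3.58.1, robust=FALSE, a replicate block, and each library left out.

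The 7 genes and the 5 surrounding lists were chosen with earlier results of these data known. From each list the 5 genes with the smallest p and the paralogs SREBF2, ACSS1, ACSS3, ME2 and ME3 were named, with the 3 genes nearest to SREBF1 in profile. Some genes of the lists, among them the 1 SREBP-1 target that rose, are not reported by name here; they stay in every count and median. Where 1 library is left out, its partner is assumed to vary like the other group.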

Additional observations from a re-analysis of the deposited data

How the results depend on the processing

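SREBF1 and ACLY were lower and passed under all 11 alternatives, with log2 fold changes of -0.61 to -0.47 and -0.26 to -0.18. ACACB stayed between -0.66 and -0.57 and ACSS2 between -0.67 and -0.24. With 1 library left out ACACB ranged from -0.66 to -0.57, FASN from -0.22 to -0.080 and ACACA from -0.34 to 0.079; ACACA was 0.079 without shNC replicate 1, and ACACB was -0.58 without shELOVL5 replicate 1 (not passing) and FASN -0.22 without shNC replicate 1 (passing). SREBF2 was 0.011 by total counts alone.

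Across all genes, 1610 were higher and 1952 lower; with 1 library left out these were 696 to 1347 and 1176 to 1616, and with no low-count filter 899 were higher. Genes that passed with 1 library left out numbered 2 to 4 among the 7, 4 to 6 among SREBP-1 targets, 2 to 6 in acetyl-CoA and NADPH supply, 3 to 6 among modifiers and 1 to 5 among mitochondrial counterparts. With no low-count filter, 3 supply and 2 mitochondrial genes passed, and by DESeq2 3 mitochondrial genes. Among SREBP-1 targets, 5 to 7 passed over the 7 alternatives that kept every library.

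The replicate block gave 1551 higher and 1902 lower genes. SREBF1 was -0.535, ACLY -0.22 and ACACB -0.61 with it, all passing, and AACS (adjusted p = 0.057) and ACSS1 (0.0598) did not pass. The labels do not say what a replicate number shares, and deviations of same-numbered libraries correlated at -0.019 over 12247 genes. The ACSS2 fold change is imprecise (SE 0.285), and ME1 is limited by depth.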
